A study of Mus musculus with 2 samples.

Results

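The cells described here were chosen by 1 gene, Mmp12, from 2 single-cell RNA libraries of bone marrow-derived myeloid-derived suppressor cells (MDSC). Marrow from 10-week-old female C57BL/6 mice was grown in GM-CSF (50 ng/mL) plus IL-6 (50 ng/mL) over 4 days, with either 1.5 µmol/L dabrafenib (DAB), a BRAF kinase inhibitor used against melanoma, or its solvent DMSO. There was 1 library per condition, from unsorted cultures. The sources used here do not state how many mice each library came from. The DMSO file held 9855 barcodes and 106792967 unique molecular identifiers (UMIs, counted RNA molecules), and the DAB file 11631 barcodes and 165506902 UMIs. Barcodes with at least 1000 UMIs and at most 10% mitochondrial UMIs numbered 9621 and 11414. Members carried at least 10 Mmp12 UMIs per 10000 UMIs of the cell and under 2 UMIs each of Mmp13 and Car4. They also stayed under 30 per 10000 for the MHC class II genes H2-Aa, H2-Ab1 and H2-Eb1 together, under 10 for C1qa, C1qb and C1qc, and under 20 for Ltf and Ngp. This gave 709 cells of 21035, 285 in DMSO and 424 in DAB, called Mmp12-high cells from here on.

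Mmp12 encodes macrophage elastase, a secreted protease that cuts elastin and other matrix proteins. It is made by macrophages and by monocytes on the way to becoming macrophages, and GM-CSF is known to raise it. Spp1 (osteopontin, a secreted adhesion protein), Lpl (lipoprotein lipase, which releases fatty acids from lipoproteins) and Nos2 (inducible nitric oxide synthase, which makes nitric oxide from arginine) are often found with it, and Nos2 is a classic suppressive enzyme of MDSC.

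Mmp12-high cells made up 2.96% of the DMSO cells (95% exact binomial interval 2.63 to 3.32) and 3.71% of the DAB cells (3.38 to 4.08). All intervals here cover counting error only, and no difference between the libraries was tested, because neither condition has a replicate library. Intervals of gene ratios rest on UMIs summed over cells and so also leave out the spread between cells of a library. The log2 ratio of the shares, DAB over DMSO, was 0.33 (0.11 to 0.55), but its size depended on the rule: it was 0.053 (6.07% and 6.29%) with the rule applied to cells thinned to 1500 UMIs and 2.09 (4.19% and 17.9%) with Spp1 in place of Mmp12. The share met by the Mmp12 limit alone went the other way, 16.2% (15.5 to 17.0) in DMSO and 10.5% (9.96 to 11.1) in DAB. The Car4 limit left out 1061 of these 1560 DMSO cells and 709 of the 1200 DAB cells, and the MHC class II limit left out 227 and 28. What remained was therefore 18.3% of the cells over the Mmp12 limit in DMSO and 35.3% in DAB. Car4, a membrane carbonic anhydrase, had no UMI in 234 of the 285 DMSO and 371 of the 424 DAB members. Mmp12-high cells had a median of 14731 UMIs in DMSO and 16304.5 in DAB, against 8172 and 10367.5 in all other cells, and summed to 4473624 and 7521953 UMIs. No barcode was a member in both libraries, although the files shared 152 barcodes.

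The working label for these cells was immature monocyte, and the marker genes of monocytes bore it out in part. Shares of cells with a UMI are given after thinning every cell to 1500 UMIs, which kept 281 DMSO and 418 DAB members, with the unthinned share in brackets. The reference for stray RNA was the cells with at least 10 Cd79a and Cd79b UMIs per 10000, B cells that should lack myeloid genes, 105 in DMSO and 178 in DAB with median depths of 4035 and 5418.5 UMIs. Itgam (CD11b, the myeloid integrin) was seen in 48.0% [93.3%] of DMSO and 59.3% [96.2%] of DAB Mmp12-high cells, against 0% and 5.75% of the thinned B cells. Csf1r, the receptor for M-CSF and a defining monocyte gene, was seen in 24.6% [80.7%] and 18.2% [70.05%], against 0% and 1.72% of the B cells. Fn1 (fibronectin) was seen in 33.5% [64.9%] and 45.2% [69.8%], and Adgre1 (F4/80, a macrophage surface protein) in 27.8% [71.9%] and 35.2% [79.5%]. All 4 genes stood above their shares in the B cells, 1.98% and 1.72% for Fn1 and 9.90% and 6.32% for Adgre1. Itgam is a general myeloid marker and does not set monocytes apart from granulocytes.

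Ly6c2, the surface antigen that marks freshly made inflammatory monocytes, went against the label. It was seen in only 4.27% [21.4%] of DMSO and 13.9% [39.9%] of DAB Mmp12-high cells, against 0.99% and 2.87% of the thinned B cells, and its level of 59.5 and 207 counts per 1000000 UMIs of the set of cells (CPM) lay below the 369 and 652 CPM of all other cells. Ccr2, the receptor that carries monocytes out of the marrow, was seen in 17.8% [58.6%] and 7.66% [25.5%], and in no thinned B cell. The defining neutrophil genes were near 0: Csf3r, the G-CSF receptor, was seen in 0.712% and 0.239%, and Ly6g in 0.356% and 1.91%, against 0% and 1.15% of the B cells for Ly6g. S100a8, a calprotectin subunit that neutrophils carry in large amounts, was seen in 15.7% [53.0%] and 39.5% [83.3%], but the B cells gave 15.8% and 38.5%, so this share is at background. The whole neutrophil marker list of 10 genes summed to 1266 CPM in DMSO and 5385 CPM in DAB Mmp12-high cells, against 3838 and 10372 CPM in the B cells. Its most abundant genes were Mmp8 in DMSO and S100a8 in DAB. Lists for B, T or NK and erythroid cells each summed to under 6 CPM, and the dendritic cell list to 24.1 and 7.58 CPM. The resident macrophage list summed to 346 and 366 CPM, of which Adgre1 made up 254 and 344 CPM and Axl 59.0 and 14.9 CPM, with Timd4 at 0 in both libraries. The monocyte list of 10 genes, with Lyz2 the most abundant, summed to 4330 CPM in DMSO and 4653 CPM in DAB. It summed to 2660 and 3409 CPM in all other cells and to 672 and 920 CPM in the B cells. The early progenitor list summed to 270 and 284 CPM, against 115 and 281 CPM in all other cells. Lyz2 alone made up 3167 and 3281 CPM of the monocyte list in Mmp12-high cells. F13a1, a clotting factor gene of that list, was below all other cells like Ly6c2, at 71.1 and 8.11 against 124 and 34.9 CPM. Fn1, also of the list, was above them, at 491 and 820 against 204 and 229 CPM. Because Ly6c2 and F13a1 went against the sum of the monocyte list, the cells are called by their rule and not as monocytes.

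**Figure D1:**
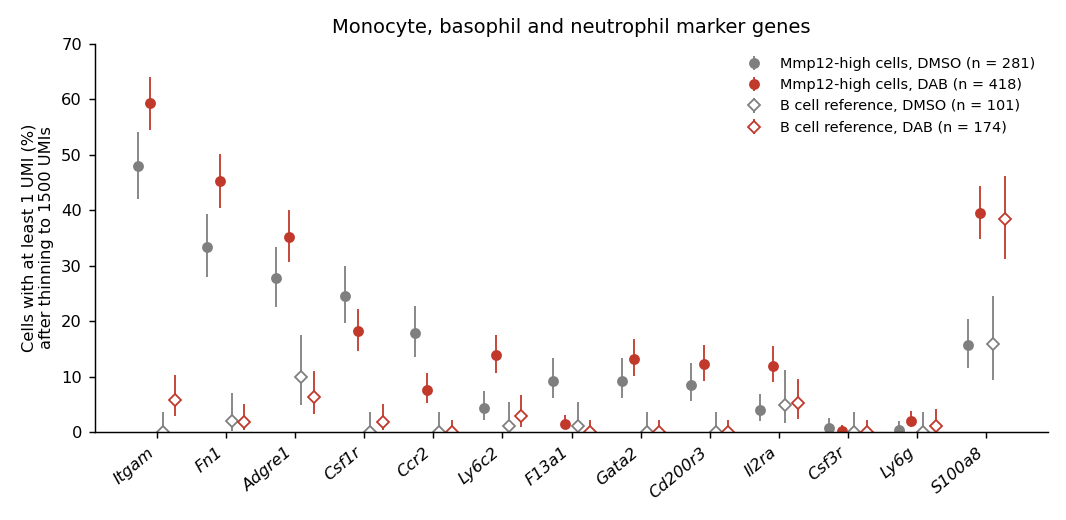
Share of cells with at least 1 UMI of 13 marker genes after thinning to 1500 UMIs (percent, with 95% exact binomial intervals) for Mmp12-high cells (filled circles) and B cells (open diamonds) of the DMSO and DAB libraries. Itgam, Fn1 and Csf1r stand well above the B cells in both libraries, whereas S100a8 lies at the level of the B cells, 15.7% against 15.8% in DMSO and 39.5% against 38.5% in DAB.

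The cells nearest to the Mmp12 limit were few, and their levels on its sides differed by gene. Just inside it, at 10 to 12 Mmp12 UMIs per 10000, 26 DMSO and 57 DAB cells carried 1423 and 3729 CPM of Spp1 and 342 and 415 CPM of Lpl. Just outside it, at 8 to 10 per 10000, 30 DMSO and 82 DAB cells carried 1157 and 3248 CPM of Spp1 and 364 and 262 CPM of Lpl. Ccl17, a chemokine, stood at 440 CPM inside and 36.7 CPM outside in DMSO, and Gpnmb, a lysosomal glycoprotein of macrophages, ran the other way at 40.5 and 174 CPM.

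Of the 4 marker genes Mmp12, Spp1, Lpl and Nos2, the last moved most between the libraries. Mmp12 itself (chr9:7344381-7369499, plus strand, GRCm38), which chose the cells, had a per-cell median of 24.9 UMIs per 10000 in DMSO (10.0 to 228) and 21.7 in DAB (10.0 to 341). Spp1 (chr5:104435118-104441050) had medians of 15.3 and 22.9, and its summed level was 3161 CPM in DMSO and 4380 CPM in DAB, a log2 ratio of 0.47 (0.44 to 0.50). In the B cells Spp1 went from 36.5 to 449 CPM and its thinned share from 5.94% to 15.5%, and the part of stray RNA in its difference was not tested. Lpl (chr8:68880491-68907448) had medians of 5.79 and 3.43 and summed levels of 786 and 606 CPM (log2 ratio -0.37, -0.44 to -0.31). The ranges of all 3 genes overlapped widely between the libraries. Nos2 (chr11:78920787-78960254) fell from 210 to 14.8 CPM (log2 ratio -3.83, -4.13 to -3.54). Its per-cell median was 0 in both libraries, since it was seen in 21.0% [44.9%] of DMSO cells, in 2.39% [12.97%] of DAB cells and in no B cell.

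**Figure D2:**
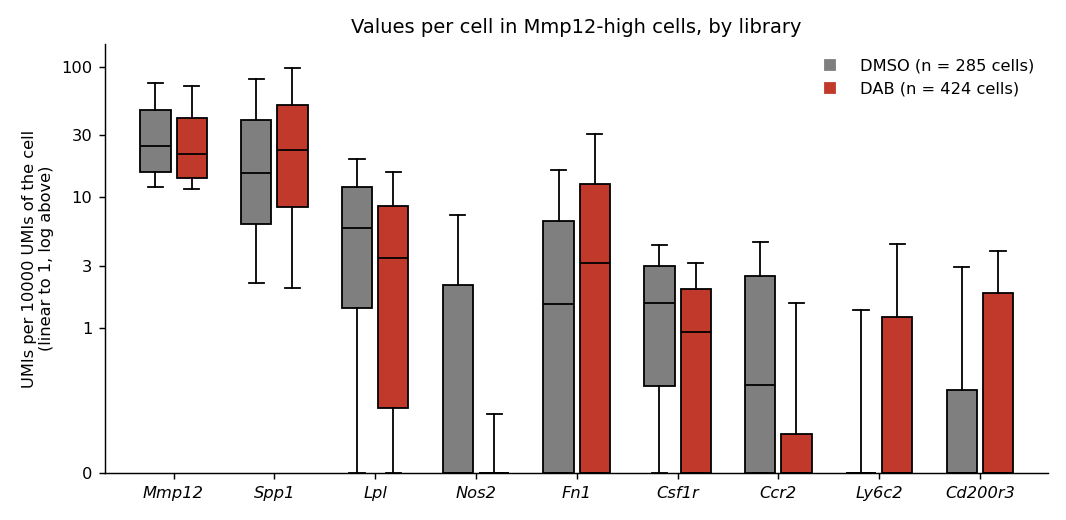
UMIs per 10000 UMIs of the cell (axis linear to 1 and logarithmic above) for 9 genes in the 285 DMSO and 424 DAB Mmp12-high cells; boxes span the 25th to 75th percentile around the median and whiskers the 10th to 90th. The boxes of Mmp12, Spp1 and Lpl overlap between the libraries, while Nos2 reaches 7.35 at the 90th percentile in DMSO and 0.405 in DAB.

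Lpl had a different ratio in other cells, although the difference between sets of cells was not tested. It went from 468 to 138 CPM in all other cells (log2 ratio -1.77) and from 1063 to 477 CPM in the Car4-positive cells over the Mmp12 limit (log2 ratio -1.16), against -0.37 in Mmp12-high cells. In DAB, Lpl was thus more abundant in Mmp12-high cells than in the Car4-positive cells, and in DMSO the order was the reverse. Nos2 fell in all 3 sets, with log2 ratios of -3.29 in all other cells and -2.92 in the Car4-positive cells, and Spp1 had log2 ratios of 0.41 and 0.22 there.

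Compared with all other cells of the same library, 278 of 9461 genes (2.94%) were at least 2-fold higher in Mmp12-high cells in DMSO and 172 (1.82%) in DAB, and 126 genes (1.33%) in both. The rule chose these cells, so the following levels are a description. The genes described had at least 5 CPM in the Mmp12-high cells of 1 library or more, and the 15 named were those with at least 50 CPM in both libraries whose smaller ratio of the pair was highest. Several of the leading genes are known from basophils, mast cells and activated lymphocytes. Cd200r3, an activating receptor of basophils and mast cells, was at 87.2 CPM in DMSO and 125 CPM in DAB Mmp12-high cells, log2 ratios over the other cells of 2.85 and 1.91. Cd200r4, its relative, reached log2 ratios of 2.00 and 1.50. Il2ra (CD25, the IL-2 receptor alpha chain) reached 1.70 and 1.63, and Gata2, a transcription factor of blood progenitors, basophils and mast cells, 1.86 and 1.42.

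The other leading genes included several of adhesion and secreted proteins. Ccdc80, a secreted matrix protein, was at 118 CPM in DMSO and 265 CPM in DAB Mmp12-high cells, log2 ratios over the other cells of 2.09 and 2.19. Fn1 was at 491 and 820 CPM (1.27 and 1.84), Itgax (CD11c) at 243 and 176 CPM (1.27 and 1.71) and Itga1, a collagen-binding integrin chain, at 182 and 186 CPM (1.32 and 1.32). Pf4, a platelet and macrophage chemokine, was at 269 and 314 CPM (1.53 and 1.74), and Adgre1 at 254 and 344 CPM (1.25 and 1.30). Tanc2 (a scaffold protein), Hgfac (a protease that activates hepatocyte growth factor), Wfdc17 and Crip1 completed the 15 genes, of which Mmp12 is also 1. After Mmp12, Wfdc17 was the one of the 15 that stood highest over the other cells in DAB, where its log2 ratio was 2.41 against 1.35 in DMSO, although its level was 458 CPM in DMSO and 161 CPM in DAB. A high ratio over all other cells did not make a gene particular to Mmp12-high cells. Fn1 and Itgax were at 586 and 260 CPM in the DMSO Car4-positive cells over the Mmp12 limit. In the cells over the C1q limit (103 in DMSO and 15 in DAB), Wfdc17 was at 1661 and 1481 CPM and Pf4 at 2428 and 1207 CPM. Il2ra was at 59.3 CPM in the DMSO cells over the MHC class II limit, against 50.3 CPM in DMSO Mmp12-high cells, and at 406 CPM in the 15 DAB cells over the C1q limit, against 161 CPM. In those 15 cells Cd200r3, Tanc2 and Hgfac were at 184, 141 and 198 CPM, against 125, 97.3 and 140 CPM in DAB Mmp12-high cells. In the 103 DMSO cells over the C1q limit they were lower than in DMSO Mmp12-high cells. Crip1 was at 947 and 521 CPM over the MHC class II limit, against 829 and 389 CPM in Mmp12-high cells.

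Cd200r3 and Gata2 were seen in 8.54% [28.1%] and 9.25% [28.4%] of DMSO and in 12.2% [47.2%] and 13.2% [47.2%] of DAB Mmp12-high cells, and in no B cell. Il2ra was seen in 3.91% [19.6%] and 11.96% [40.3%], against 4.95% [9.52%] and 5.17% [17.98%] of the B cells. In DMSO the B cells held more Il2ra than all other cells, 32.7 against 15.5 CPM. They are therefore no measure of stray RNA for this gene. At least 2 UMIs of Cd200r3, Gata2 and Il2ra together were found in 86 of 285 DMSO cells (30.2%) and 235 of 424 DAB cells (55.4%). These are called the cells with the receptors, although Gata2, which encodes no receptor, can meet the limit alone. The others carry under 2 UMIs of the set, not always none. The cells with the receptors were the deeper ones, with median UMIs of 19619 and 19289 against 13046 and 11600 for the others, and a share of this kind moves with depth. After thinning, Adgre1 was seen in 44.2% [96.5%] of them in DMSO and 46.6% [94.5%] in DAB, against 9.90% [21.9%] and 6.32% [22.5%] of the B cells. Csf1r was seen in 24.4% [88.4%] and 16.7% [71.9%] of the cells with the receptors, and in 24.6% and 20.1% of the other thinned Mmp12-high cells. The defining basophil and mast cell genes were nearly absent from the cells with the receptors without thinning. The IgE receptor gene Ms4a2 was seen in 0 of 86 (0 to 4.20%) and 0.851% of them, and Fcer1a in 0 of 86 and 0.426%. The whole basophil or mast cell list of 6 genes summed to 66.4 CPM in DMSO and 190 CPM in DAB Mmp12-high cells, with Gata2 the most abundant and Prss34, Cpa3 and Fcer1a at 0 in DMSO. Prss34, a basophil protease, stood at 45.5 CPM in DAB, but it was seen in 6 of the 424 cells.

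The cells with the receptors and the others, which also differ in depth, had different levels of Lpl and Nos2. In DMSO, Lpl was at 1221 CPM in cells with the receptors and 511 CPM in the others, while Nos2 was at 89.3 and 286 CPM. The same orders held in DAB, with Lpl at 740 and 352 CPM and Nos2 at 10.3 and 23.2 CPM. Nos2 fell between the libraries in both, with log2 ratios of -3.11 and -3.62. Ccl17, a chemokine that draws CCR4-bearing T cells, fell from 991 to 13.8 CPM in cells with the receptors (log2 ratio -6.17) and from 604 to 93.3 CPM in the others (log2 ratio -2.69). Hdc, which makes histamine, was seen in 3.49% [23.3%] of the cells with the receptors in DMSO and 23.1% [63.0%] in DAB. In the others it was seen in 0% [7.04%] and 4.35% [23.8%], and in no thinned B cell.

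Within the Mmp12-high cells, Gpnmb and Fn1 stood higher and the monocyte antigen Ly6c2 lower in cells with more Mmp12, while other macrophage genes followed Mmp12 or did not. The cells fell into 109, 88 and 88 DMSO cells and 191, 124 and 109 DAB cells at 10 to 20, 20 to 40 and at least 40 Mmp12 UMIs per 10000. Gpnmb was at 134, 674 and 1655 CPM at these levels in DMSO and at 246, 419 and 758 CPM in DAB. Fn1 was at 238, 492 and 854 CPM in DMSO and 532, 907 and 1335 CPM in DAB. Ly6c2 ran the other way in DMSO, at 109, 37.8 and 9.21 CPM, and was at 237, 232 and 113 CPM in DAB. Itgax was higher with more Mmp12 in both libraries, at 148, 244 and 381 CPM in DMSO and 130, 183 and 265 CPM in DAB, and Spp1 and Lpl had the same order. Mgl2, a macrophage lectin, was lower with more Mmp12 in DMSO, at 1759, 1198 and 795 CPM, but was at 733, 835 and 836 CPM in DAB. Csf1r was at 197, 220 and 183 CPM in DMSO and at 126, 134 and 158 CPM in DAB. Across single cells, Mmp12 and Fn1 had a Spearman correlation of 0.25 over the 281 thinned DMSO cells and 0.26 over the 418 DAB cells, weak values in sparse counts of a shared library. Mmp12 and Spp1 had 0.23 in DMSO and 0.06 in DAB, and Mmp12 and Lpl 0.17 and 0.11. Nos2 fell and Asns rose at each of the 3 levels, with log2 ratios of DAB over DMSO of -3.71, -4.15 and -3.40 for Nos2 and 1.89, 3.10 and 2.69 for Asns.

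Over all 9461 genes, falls outnumbered rises in DAB Mmp12-high cells. At least 2-fold higher in DAB were 293 genes (3.10%) and at least 2-fold lower 659 genes (6.97%), all with an interval that left out 0, and the median log2 ratio was -0.09. The median gene rested on 109 UMIs in DMSO and 171 in DAB. Scaling by the median of ratios in place of total UMIs set a median of ratios of -0.14 (log2) to 0, raised every ratio by as much and gave 400 higher and 498 lower genes, so the balance of the counts depends on the scaling. Ratios of lists below are to be read beside this median.

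**Figure D3:**
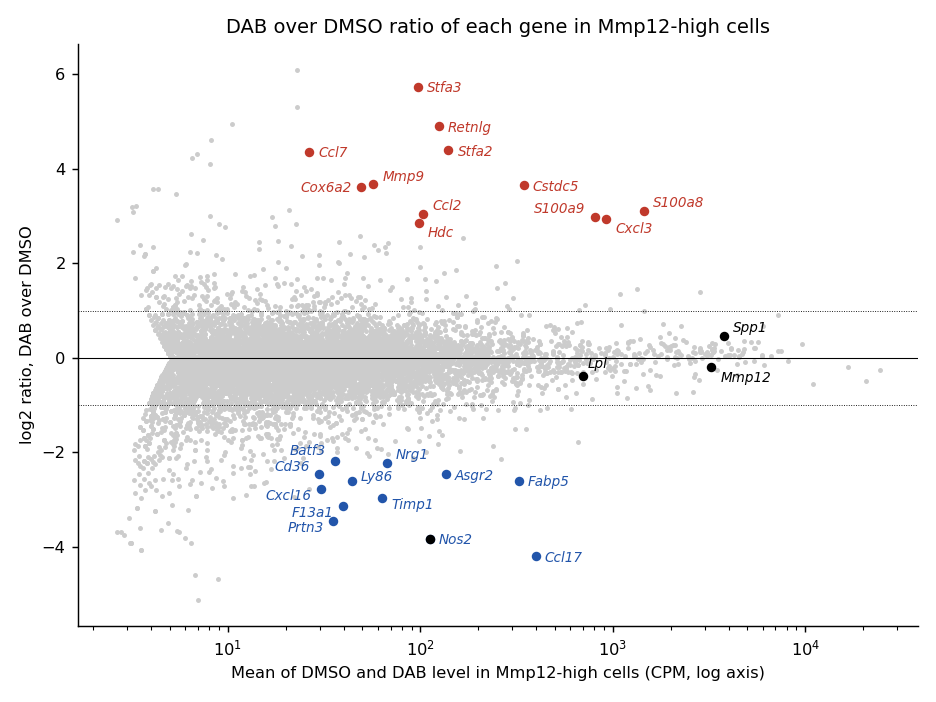
Log2 ratio of DAB over DMSO against the mean level of the 2 libraries (CPM, logarithmic axis) for 9461 genes in Mmp12-high cells; dotted lines mark 2-fold. Red points are the 12 largest rises, blue points the 12 largest falls (with Nos2, in black) and black points the 4 marker genes, of which Nos2 alone lies beyond 2-fold.

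The 12 largest falls were of mixed kinds, among them chemokines, secreted proteins and 2 carriers of lipid. Among genes with at least 50 CPM in 1 library, Ccl17 fell most, from 754 to 41.1 CPM (log2 ratio -4.20, -4.37 to -4.03), and was seen in 14.6% [22.1%] of DMSO and 2.39% [7.78%] of DAB cells. Prtn3, the gene of the granule protease proteinase 3, fell from 64.2 to 5.85 CPM. F13a1, a clotting factor subunit made by monocytes, fell from 71.1 to 8.11 CPM, and Timp1, a metalloproteinase inhibitor, from 112 to 14.4 CPM. Fabp5, a fatty acid carrier, fell from 560 to 92.0 CPM (log2 ratio -2.60, -2.73 to -2.48), and Cd36, a fatty acid and lipoprotein receptor, from 50.1 to 9.04 CPM. Ly86 (a partner of the receptor CD180), Asgr2 (a lectin subunit), Nrg1 (an EGF-family growth factor), Cxcl16 (a chemokine) and Batf3 (a transcription factor) had log2 ratios of -2.62, -2.47, -2.23, -2.78 and -2.17. All these genes also had negative ratios in all other cells and in the Car4-positive cells over the Mmp12 limit. Some of them were higher in the DMSO cells over the MHC class II limit than in DMSO Mmp12-high cells. These were Ccl17 (1007 CPM), Prtn3 (218 CPM), Asgr2 (353 CPM), Ly86 (160 CPM), Cxcl16 (127 CPM) and Batf3 (95.7 CPM). F13a1, Timp1, Cd36 and Nos2 were lower there, and Fabp5 and Nrg1 about equal. The part of the MHC class II limit in these falls was not tested. For Prtn3 the log2 ratio was -3.46 in Mmp12-high cells and -0.83 in all other cells, and for Cxcl16 -2.78 and -0.96, a difference that was not tested.

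The largest rises included stefins, calprotectin and chemokines, and part of them was also seen in the B cells. Stfa3, Stfa2 and Cstdc5, cytosolic inhibitors of cysteine proteases, rose from 3.58 to 190 CPM, 12.7 to 267 CPM and 50.7 to 637 CPM in Mmp12-high cells. In the B cells the same 3 genes went from 0 to 58.8, 231 and 210 CPM. S100a8 rose from 301 to 2601 CPM (log2 ratio 3.11, 3.03 to 3.19) and S100a9 from 181 to 1429 CPM (2.98, 2.88 to 3.09). The B cells held more of both genes, 1602 and 4923 CPM of S100a8 and 1988 and 4389 CPM of S100a9, while all other cells had log2 ratios of -0.03 and -0.32. Cells with at least 50 UMIs of the pair per 10000 numbered 3 in DMSO and 51 in DAB, and without them the log2 ratios were 1.34 and 1.46. Retnlg, a neutrophil resistin-like protein, rose from 8.05 to 241 CPM, with 65.3 and 600 CPM in the B cells. The part of stray RNA in these rises was not tested.

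Among the chemokines that attract monocytes and neutrophils, Ccl2 and Ccl7 were nearly absent from the B cells. Cxcl3, a ligand of the neutrophil receptor CXCR2, rose from 213 to 1641 CPM (log2 ratio 2.94, 2.85 to 3.04), and was seen in 12.8% [30.5%] of DMSO and 55.3% [78.1%] of DAB cells, against 0.99% and 7.47% of the B cells, where it went from 3.84 to 362 CPM. Ccl2 rose from 22.4 to 185 CPM and Ccl7 from 2.46 to 50.4 CPM, both with under 1 CPM in the B cells. Ccl7 was seen in 2.11% of DMSO and 5.42% of DAB cells without thinning, so few cells carried it. Hdc rose from 23.9 to 173 CPM, with 0 and 11.8 CPM in the B cells. Mmp9, a gelatinase, rose from 8.27 to 106 CPM, but the B cells went from 19.2 to 65.1 CPM. Mmp9 was seen in 1.42% [6.32%] of DMSO and 12.2% [30.2%] of DAB Mmp12-high cells, against 0.99% and 4.02% of the thinned B cells. Cox6a2, a subunit of cytochrome c oxidase best known from muscle, rose from 7.38 to 91.1 CPM (log2 ratio 3.63, 3.12 to 4.18), close to its log2 ratio of 3.85 in all other cells. In the B cells it went from 15.4 to 40.7 CPM, and thinned shares were 2.49% and 6.70% in Mmp12-high cells against 2.97% and 4.02% in the B cells. The part of stray RNA in the rises of Cxcl3, Mmp9 and Cox6a2 was not tested.

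**Figure D4:**
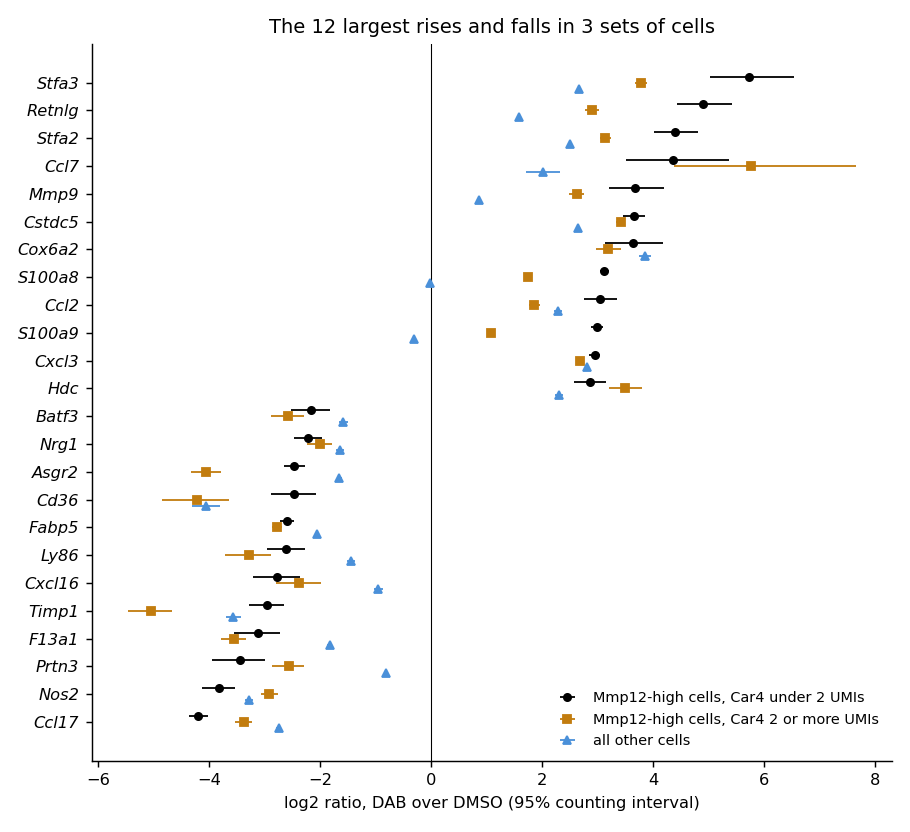
Log2 ratio of DAB over DMSO, with 95% counting intervals, of the 12 largest rises and falls in Mmp12-high cells (circles), in Car4-positive cells over the Mmp12 limit (squares) and in all other cells (triangles). All falls lie left of 0 in the 3 sets, while S100a8 and S100a9 are at 3.11 and 2.98 in Mmp12-high cells and at -0.03 and -0.32 in all other cells.

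Arginine genes changed in both directions in Mmp12-high cells. Of 12 arginine and polyamine genes, 2 rose and 4 fell, with a median log2 ratio of -0.56, beside 3.10% and 6.97% of all genes. Those that fell included Nos2, Gatm (39.6 to 8.51 CPM), which makes the creatine precursor from arginine, and Slc7a2 (375 to 102 CPM), which brings arginine into macrophages. Those that rose were Slc7a1 (12.1 to 47.3 CPM), the general transporter of arginine and lysine, and Srm (54.5 to 124 CPM), which makes spermidine. Ass1, which rebuilds arginine from citrulline, was at 537 and 323 CPM. Of 12 other suppressive mediators, Cd274 (PD-L1) alone passed 2-fold, falling from 171 to 74.0 CPM (log2 ratio -1.20, -1.36 to -1.04), a share near that of all genes, while Tgfb1 was at 383 and 606 CPM. Il10 had no UMI in either library.

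Among genes of monocyte identity and of the macrophage program, as over all genes (6.97% lower and 3.10% higher), falls outnumbered rises. Of 20 monocyte identity genes, 7 fell and 2 rose, and the median log2 ratio was -0.19, which was also the median in all other cells. The falls included Ccr2 (171 to 42.9 CPM), Cx3cr1 (5.36 to 0.399 CPM), another chemokine receptor of monocytes, and Irf8 (53.0 to 22.6 CPM), a factor needed for monocyte development. The rises were Ly6c2 (59.5 to 207 CPM) and Fcgr1 (16.5 to 41.7 CPM), the high-affinity IgG receptor. In the cells with under 50 S100a8 and S100a9 UMIs per 10000, Ly6c2 was at 49.9 and 111 CPM. Lyz2 (lysozyme), the most abundant gene of the list, was at 3167 and 3281 CPM. Of 24 genes of the lipid and matrix program, 4 fell (Fabp5, Cd36, the mannose receptor Mrc1 and the lipid regulator Pparg) and Chil3 rose, with a median of -0.53 against -0.75 in all other cells. Pparg, at a log2 ratio of -1.03, was at -0.89 with scaling by the median of ratios. Mrc1 went from -2.06 to -0.91 with the mean over cells. Chil3 went from 1.93 to 0.30 with Spp1 in place of Mmp12 and to 0.70 with the rule applied to thinned cells. Lgals3 (galectin-3) was at 6479 and 5806 CPM. Of 26 transcription factors, 9 fell and none passed 2-fold upward (median -0.53), and Spi1 (PU.1, the master factor of myeloid cells) was at 316 and 380 CPM. The falls of the factors Irf8, Irf4, Klf4 and Tcf7l2 depended on the setting. In cells with under 2 UMIs of Cd200r3, Il2ra and Gata2 they were under 2-fold, at -0.76, -0.61, -0.52 and -0.80.

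Chemokine ligands and matrix proteases changed in both directions, beside 3.10% higher and 6.97% lower of all genes. Of 14 chemokine ligands, 6 rose (Ccl7, Ccl2, Cxcl3, Cxcl2, Ppbp and Ccl4) and 4 fell (Ccl17, Cxcl16, Ccl22 and Ccl24), with a median of 0.61. The ligands of CXCR2 and CCR2 are among the first group and those of CCR4, Ccl17 and Ccl22, in the second. Ccl24, an eosinophil attractant, fell from 526 to 186 CPM, and Ccl6, the most abundant of the list, was at 5045 and 9463 CPM. Of 11 chemoattractant receptors, C5ar1 rose from 37.3 to 105 CPM and 4 fell (median -0.34). Of 16 matrix proteases and inhibitors, 5 rose and 3 fell (median -0.15). The rises were Mmp9, Mmp25, Serpinb2, Timp2 and Plaur, the urokinase receptor (444 to 897 CPM), and the falls Timp1, Mmp19 (110 to 26.7 CPM) and Mmp14 (153 to 44.8 CPM). Timp2 went from a log2 ratio of 1.32 to 0.54 with the mean over cells. Plaur went from 1.01 to 0.89 in cells with under 50 S100a8 and S100a9 UMIs per 10000.

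In Mmp12-high cells, most genes of the amino acid response rose, though not all of them. This response starts when the kinase GCN2 (Eif2ak4) senses a shortage of amino acids and the factor ATF4 is then made, which switches on genes for amino acid synthesis, import and tRNA charging. Of 32 genes described, 18 rose and 1 fell, beside 3.10% and 6.97% of all genes, and the median log2 ratio was 1.38, against -0.09 for all genes in these cells and 1.51 for the list in all other cells. Asns (asparagine synthetase) rose from 18.6 to 96.5 CPM (log2 ratio 2.38, 2.05 to 2.72) and was seen in 1.42% [18.2%] of DMSO and 10.5% [58.7%] of DAB cells, against 0.99% and 1.15% of the B cells. Trib3, a target of ATF4 that restrains it, rose from 14.1 to 83.6 CPM, Phgdh, the first enzyme of serine synthesis, from 21.0 to 114 CPM, and Stc2 from 5.59 to 39.6 CPM. Cth, which makes cysteine, had no UMI in DMSO and 16.4 CPM in DAB, a log2 ratio of at least 4.61 against a floor of 3 counts per library and an exact 95% lower limit of 4.29. Chac1, which degrades glutathione, and Atf5, a related factor, had log2 ratios of 2.30 and 2.29. Atf4 itself was at 148 and 270 CPM (0.87), and Ddit3 at a log2 ratio of 0.60. Atf3, which other stresses also induce, fell from 89.6 to 26.7 CPM. Cebpb, the most abundant gene of the list, was at 885 and 743 CPM.

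The DNA element that ATF4 dimers are known to bind, TGATGNAA, was searched on both strands in the 250 bases before the RefSeq start of each gene (GRCm38). It was found in 7 of the 28 genes of the response with a promoter entry, in 2.52% of the 7611 genes described with an entry and in 3.91% of all 27025 entries. Among the genes that rose it was in 3 of 15, and among the other members of the list in 4 of 13. The windows below, 5′ to 3′ on the gene's strand, show the 3 genes that rose and Nupr1 and Atf3, which did not, with the match in capitals. They are Asns at chr6:7693214-7693243 (minus strand), Chac1 at chr2:119351038-119351067 (plus), Vldlr at chr19:27216809-27216838 (plus), Nupr1 at chr7:126625562-126625591 (minus) and Atf3 at chr1:191183425-191183454 (minus).
Asns: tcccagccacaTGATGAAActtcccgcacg
Chac1: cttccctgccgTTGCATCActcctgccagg
Vldlr: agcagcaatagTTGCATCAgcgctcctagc
Nupr1: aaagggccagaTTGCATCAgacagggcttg
Atf3: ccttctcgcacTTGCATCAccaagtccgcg
The match lies 23 bases before the RefSeq start of Asns, on the gene's own strand (GENCODE starts the gene further upstream, at 7693254, so that the window lies inside it there), and in the other 4 genes on the opposite strand, 193 bases before the start of Chac1, 200 of Vldlr and 110 of Nupr1 and Atf3. A match of letters does not show binding.

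The enzymes that charge tRNAs and the factors that build ribosomes leaned the same way. Of 20 cytosolic aminoacyl-tRNA synthetases, 6 rose and none fell 2-fold (median 0.70), beside 3.10% and 6.97% of all genes, led by Aars (37.6 to 101 CPM) and Lars (27.5 to 67.3 CPM). The count of 6 ranged from 3, with the mean over cells, to 9, with scaling by the median of ratios, with Mmp12 at least 20 per 10000, with Spp1 in place of Mmp12 or in cells with no proliferation UMI. Dars was at 71.5 and 71.3 CPM and Vars at 48.1 and 48.0 CPM. Of 20 ribosome biogenesis genes, 6 rose and none fell 2-fold (median 0.77), beside the same shares of all genes. Dkc1 and Nop56 were among the rises. With the rule applied to thinned cells, Nop56, Bop1 and Rrp9 were under 2-fold, at 0.98, 0.78 and 0.86. Of the 58 ribosomal protein genes, none passed 2-fold (median 0.15). None of the 23 genes of the unfolded protein response passed 2-fold (median 0.11).

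Cell division genes stood lower in DAB Mmp12-high cells. Of 22 proliferation genes, 9 fell and none rose, beside 6.97% and 3.10% of all genes, and the median log2 ratio was -0.92, against -0.29 in all other cells. The count of falls was 1 with Spp1 in place of Mmp12 in the rule (median -0.42), 5 with scaling by the median of ratios and 17 in cells with under 2 UMIs of Cd200r3, Il2ra and Gata2. Cdc20 and Bub1b, both of the mitotic checkpoint, fell from 18.1 to 5.45 CPM and from 22.6 to 6.91 CPM, and Ube2c, a ubiquitin enzyme of mitotic exit, from 130 to 61.7 CPM, whereas the replication genes Pcna and Mcm5 were at 58.1 and 62.4 CPM and at 13.9 and 21.1 CPM. Dividing cells, taken as those with 3 or more UMIs of these genes in the thinned counts, were 33 of 281 in DMSO, 11.7% (8.22 to 16.1), and 19 of 418 in DAB, 4.55% (2.76 to 7.01). In the B cells the shares were 7.92% and 2.30%. In Car4-positive cells over the Mmp12 limit they were 14.9% and 2.66%, and in the cells over the MHC class II limit (766 DMSO and 853 DAB cells under the C1q and Ltf and Ngp limits) 8.72% and 9.09%. Dividing cells were more frequent at low Mmp12: in DMSO they made up 20 of 108 cells at 10 to 20 Mmp12 UMIs per 10000 (18.5%), 8 of 88 at 20 to 40 (9.09%) and 5 of 85 at 40 or more (5.88%), and in DAB 7.41%, 2.46% and 1.87%. Of 15 cyclins and their inhibitors, Ccnd2, a G1 cyclin that growth factors induce, rose from 139 to 413 CPM and Cdkn2c fell from 7.15 to 1.73 CPM (median -0.27), counts near the shares of all genes.

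Sterol and fatty acid synthesis was the list with the most falls among the metabolic lists. Of 18 genes, 10 fell and none rose, beside 6.97% and 3.10% of all genes, with a median log2 ratio of -1.02 against -0.53 in all other cells. With Spp1 in place of Mmp12 in the rule, 2 of the 18 fell and the median was -0.55, and Cyp51, Hmgcs1 and Idi1 were at -0.69, -0.96 and -0.93. Scd1, which desaturates fatty acids, fell from 26.6 to 4.25 CPM, and the cholesterol enzymes Cyp51, Hmgcs1, Idi1, Fdps and Fdft1 had log2 ratios of -1.74, -1.70, -1.65, -1.63 and -1.61. Scd2, the most abundant, was at 310 and 175 CPM. In contrast, none of 20 glycolysis genes (median -0.13), 22 lysosome genes (-0.17), 16 NRF2 targets (-0.08), 13 mitochondrially encoded genes (0.29) or 6 NADPH oxidase subunits (0.15) passed 2-fold. Of 35 nuclear genes of oxidative phosphorylation, Cox6a2 alone passed it (median -0.26). Gpi1, a glycolytic isomerase, was at 1927 and 1194 CPM, and Ctsd, a lysosomal protease, at 979 and 1934 CPM.

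**Figure D5:**
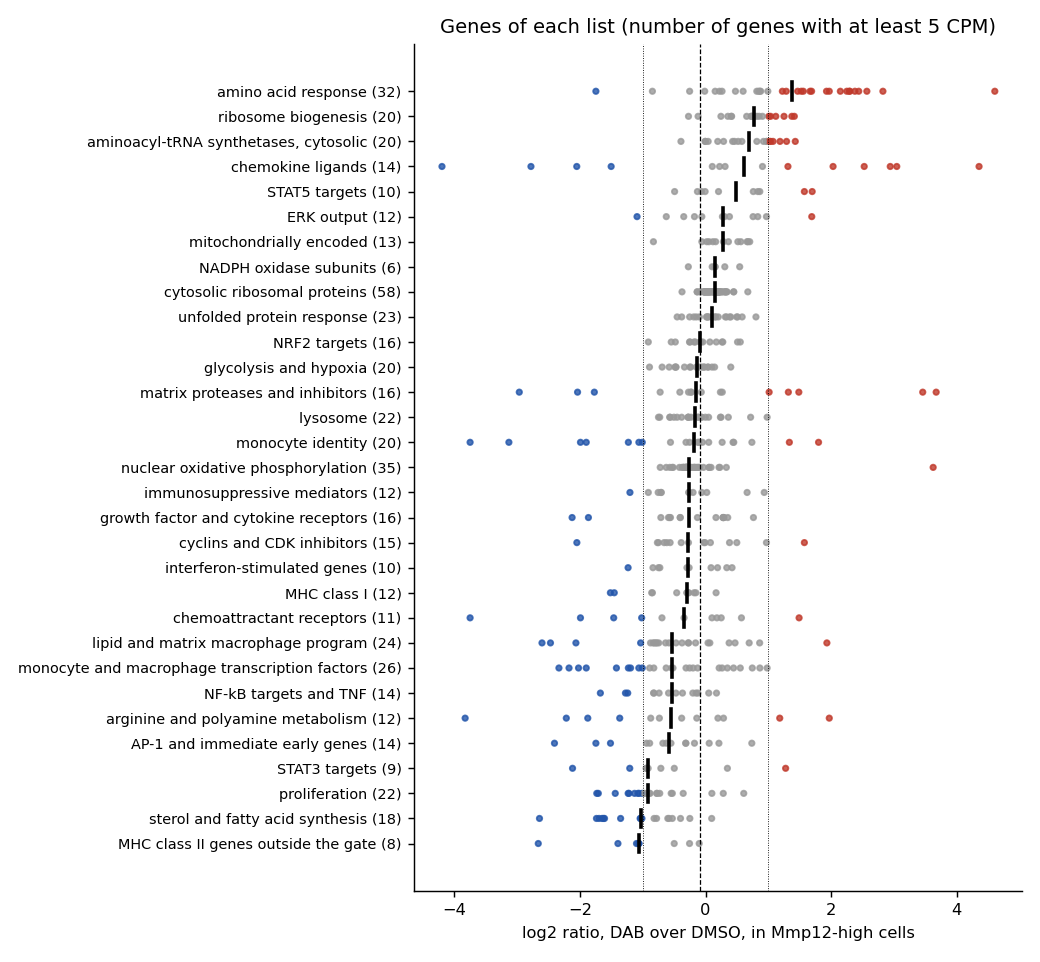
Log2 ratio of DAB over DMSO in Mmp12-high cells for every gene of 31 lists with at least 5 CPM, ordered by the list's median (black bars); dotted lines mark 2-fold and the dashed line the median of all genes, -0.09. Red and blue points are genes at least 2-fold higher and lower, as in the amino acid response (18 and 1 of 32 genes) and sterol and fatty acid synthesis (0 and 10 of 18).

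Of the genes downstream of the cytokines and kinases of this culture, few passed 2-fold, and with 9 to 16 genes a list the counts are to be read beside the 3.10% higher and 6.97% lower of all genes. Of 12 genes driven by ERK, Dusp6, a phosphatase that ERK induces against itself, rose from 23.7 to 76.6 CPM and Emp1 fell from 8.49 to 3.99 CPM (median 0.29). Of 14 AP-1 and immediate early genes, Fos (23.2 to 4.39 CPM), Atf3 and Zfp36 fell (median -0.59), and of 14 NF-κB targets, Il1b (37.8 to 11.8 CPM), Tnfaip3 and Il1a (median -0.53). Of 9 STAT3 targets, Hp (haptoglobin) and Socs3 fell and Fgl2 rose (median -0.91, against -0.50 in all other cells), and of 10 STAT5 targets, Id1 and Ccnd2 rose (median 0.48). Fgl2 went from a log2 ratio of 1.28 to 0.25 in cells with under 2 UMIs of Cd200r3, Il2ra and Gata2, and Socs3 from -1.21 to -0.80 with Mmp12 at least 20 per 10000. IL-6 acts through STAT3 and GM-CSF mainly through STAT5. Of 16 cytokine receptors, Il6st (gp130, the signalling chain for IL-6) fell from 40.01 to 9.17 CPM and Csf3r from 5.81 to 1.60 CPM (median -0.27). The fall of Csf3r rested on 26 and 12 UMIs, and its log2 ratio went from -1.87 to -0.99 with doublets removed and to -0.67 with the rule applied to thinned cells. With Spp1 in place of Mmp12 the direction of Csf3r turned, at 0.044. The GM-CSF receptor chains Csf2ra and Csf2rb were at 110 and 187 CPM and at 1391 and 1687 CPM.

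Of 8 MHC class II pathway genes that the rule did not use, 5 fell (median -1.06), beside 6.97% of all genes, among them Ciita, the master factor of class II, from 10.95 to 1.73 CPM, Ctss (612 to 293 CPM) and Ifi30 (574 to 268 CPM), both of which cut antigen in endosomes. Cd74, the invariant chain, was at 3764 and 3156 CPM. These genes are linked to those the rule set a limit on, and the limit left out 227 DMSO but 28 DAB cells. The part of the limit in their levels was not tested. Ctss, Ifi30 and H2-DMb1 were under 2-fold, at -0.92, -0.96 and -0.92, with scaling by the median of ratios. With Mmp12 at least 20 per 10000, Ifi30, H2-DMb1 and H2-Oa were under it, at -0.93, -0.97 and -0.70. Most of the 5 falls thus depended on the setting. Of 12 MHC class I genes, 2 fell (median -0.30), and of 10 interferon-stimulated genes 1, Stat2 (median -0.28), counts too small to set apart from the 6.97% of all genes.

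The genes of GCN2 and of BRAF, the kinase that dabrafenib targets, were described last. Eif2ak4 was at 30.4 CPM in DMSO and 20.7 CPM in DAB Mmp12-high cells (log2 ratio -0.55, -0.89 to -0.21), and Braf at 27.5 and 22.1 CPM (-0.32, -0.66 to 0.03). Neither passed 2-fold, and RNA levels say nothing of kinase activity.

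The genes that varied most from cell to cell were of 2 kinds, abundant genes seen in most cells and genes carried by few. After thinning, the variance over the mean had a median of 1.09 over 1954 genes in DMSO and 1.09 over 1906 genes in DAB. Retnla (RELM-alpha, a secreted protein of alternatively activated macrophages) reached 30.5 in DMSO and 50.1 in DAB, with UMIs in 8.19% and 15.6% of cells and up to 60 and 114 UMIs in a cell. It was seen in 0% of DMSO and 8.62% of DAB thinned B cells, and the part of stray RNA was not tested. Fth1 (ferritin heavy chain), in contrast, reached 39.8 and 44.4 with UMIs in 100% and 99.8% of cells. S100a8 reached 19.5 and 47.1 and S100a9 17.1 and 37.3. Ccl17 was among the 10 most variable genes in DMSO (16.5), and Retnlg (27.2), Wfdc17 (17.6) and Ccl6 (12.9) in DAB. Fth1, Lyz2 and Spp1 were among the 10 in both libraries, and so was Gm42418, a transcript that overlaps ribosomal RNA, at 24083 and 17105 CPM.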

How the data were processed

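The files hold raw UMI counts per gene and barcode, not normalized, which the authors obtained with Cell Ranger 7.0.0 on mm10 (GRCm38) and deposited ahead of their own filters on cells and doublets. Seurat 4.3.0 and R 4.1.2 are also listed in the submitters' processing notes. Counting error depends on the summed UMIs, given in the report.

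UMIs of the member cells were summed per library and scaled to 1000000 UMIs of the members' total (CPM). Genes with at least 5 CPM in 1 library were described by the log2 ratio of DAB over DMSO with an exact conditional 95% interval and no count added. Rose and fell mean at least 2-fold with an interval that leaves out 0. A gene with under 3 UMIs in a library is given as a bound against 3 counts. Shares carry exact Clopper-Pearson intervals, after thinning to 1500 UMIs (seed 1). No test between conditions was possible with 1 library each. Aldoa and Ddit3 each have more than 1 identifier in the files, and the one with most UMIs was used, so their counts may be shared. Doublets were kept as the rule has it. A score against simulated doublets (0.8% per 1000 cells) would remove 8 DMSO and 24 DAB members, and is 1 of the alternatives.

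The members and the gene lists were chosen with earlier results of these data known. Named genes were the markers, the 12 largest ratios each way among genes with at least 50 CPM and an interval leaving out 0, the 15 with the highest smaller ratio over all other cells among genes with at least 50 CPM in both libraries, up to 4 genes of each list by size of ratio with the most abundant, the 10 most variable and the kinases. A few other list members are given with their values, chosen after their values were seen. Promoters came from RefSeq (GRCm38.p6), and gene positions from the GENCODE annotation of the same build. Alternatives were other limits of the rule, scalings, minimum levels, thinning depths, UMI cut-offs for dividing cells and the removal of sets of cells. Python 3.11.15 was used with numpy 2.4.6, scipy 1.17.1, pandas 2.3.3, scikit-learn 1.9.0 and matplotlib 3.10.9. The flow cytometry, metabolic and other assays of the study were not analysed here, and a few genes that this rule names are not reported here.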

Additional observations from a re-analysis of the deposited data

Results flagged for a closer look

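Chil3, which encodes a chitinase-like protein of alternatively activated macrophages and of maturing granulocytes, was the only 1 of 2851 genes looked at that moved at least 2-fold one way in Mmp12-high cells and at least 2-fold the other way in all other cells. In Mmp12-high cells it went from 102 CPM in DMSO to 391 CPM in DAB, a log2 ratio of 1.93 (1.79 to 2.08). In all other cells it went from 4201 to 1548 CPM, a log2 ratio of -1.44 (-1.45 to -1.43). In the Car4-positive cells over the Mmp12 limit it was at 945 and 799 CPM, and in the B cells at 336 and 334 CPM. The share of Mmp12-high cells with a Chil3 UMI after thinning was 10.3% (7.02 to 14.5) in DMSO and 20.1% (16.4 to 24.3) in DAB, against 8.91% and 6.90% of the B cells. The DMSO share is thus near that of the B cells. The log2 ratio in Mmp12-high cells was under 2-fold with Spp1 in place of Mmp12 in the rule (0.30) and with the rule applied to thinned cells (0.70). The difference between the sets of cells was not tested, because each condition has 1 library.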

How the results depend on the processing

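No paired analysis was possible because each condition has 1 library. The share of Mmp12-high cells moved with the rule: it was 4.03% in DMSO and 5.94% in DAB with Mmp12 at least 5 per 10000 (log2 ratio 0.56), 1.83% and 2.04% with at least 20, 6.07% and 6.29% with the rule applied to thinned cells (log2 ratio 0.053), 4.19% and 17.9% with Spp1 in place of Mmp12 (log2 ratio 2.09), and 2.43% and 3.25% with no Car4 UMI, a setting chosen after seeing the data. The direction of the share ratio was the same under all these settings of the full rule, but its size was not, and with thinned cells it was small. The Mmp12 limit alone gave the other direction, with 16.2% in DMSO and 10.5% in DAB. Genes at least 2-fold higher and lower numbered 520 and 1367 with a minimum of 1 CPM and 155 and 251 with 20 CPM. The median of the proliferation list was -0.42 with the Spp1 rule (1 of 22 lower, against 9), -1.75 in cells with under 2 UMIs of Cd200r3, Il2ra and Gata2 (chosen after seeing the data) and -0.11 in cells with no proliferation UMI, a setting that removes the cells the list marks. That of sterol and fatty acid synthesis was -0.55 with the Spp1 rule (2 of 18 lower, against 10).

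The share of dividing cells was 7.51% in DMSO and 2.18% in DAB with Mmp12 at least 20. With the Spp1 rule it was 15.9% in DMSO and 11.7% in DAB, and in DAB 1.63% in cells with under 2 UMIs of Cd200r3, Il2ra and Gata2. A second thinned draw, added after seeing the data, gave 10.7% and 5.02%, and 16.4% and 3.11% for cells with a Nos2 UMI. The share of dividing cells was 48.4% and 32.8% without thinning, 16.5% and 7.87% with 3000 UMIs, 40.9% and 23.2% with at least 1 UMI of the list and 7.12% and 2.39% with at least 5. Cdc20 turned to 0.59 in cells with no proliferation UMI and Csf3r to 0.044 with the Spp1 rule. The causes were not tested. Of the 1834 alternative values of the 131 named or listed genes past 2-fold, 1676 stayed past it in the same direction and 158 did not. Chil3 was among those that did not, at 0.30 with the Spp1 rule and 0.70 with the rule applied to thinned cells. Of 496 alternative list medians, 447 moved little and 49 moved more. Plaur, Pparg, Ccl4, Fcgr1, Irf8, Srm, Timp2, Vldlr, Fdft1, Fdps, Fgl2, Socs3, Emp1, Ifi30, Ctss, Il1b, Tnfaip3, Mrc1, Nop56, Cyp51, Hmgcs1, Idi1, Cdc20, Bub1b and Ube2c, given in the report as past 2-fold, were also under it in 1 alternative or more. Depth limits the genes near 5 CPM, which rest on few UMIs per library.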
